A study of Mus musculus with 8 samples.

Results

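The striatum of mice given the neurotoxin MPTP was compared with the striatum of mice given saline. The comparison used the 4 arrays of these groups, of 8 arrays in the series, and all probe sets that the platform's gene table gives 1 gene symbol, which were 21789 of 35557. Of these, 16342 probe sets for 14890 genes had a mean log2 value over the 8 arrays of at least 5.25 and were tested. The MPTP group held 2 male C57BL/6 mice, an inbred strain, injected into the abdomen daily for 4 weeks with MPTP at 20 mg/kg. The control group held 2 male C57BL/6 mice injected with 100 µl of saline on the same schedule. The mice were 6 weeks old at the outset, the labels give 9 animals to each of these groups, and RNA of both striata was measured for 2 animals of each. The other arrays came from MPTP-treated mice that were also needled, at acupoints or away from them, with 2 mice in each group. The needled arrays entered the model only to estimate the spread between mice of a group.

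The striatum is the forebrain nucleus in which dopamine axons from the midbrain end on medium spiny neurons, the inhibitory projection neurons that carry D1 or D2 dopamine receptors. MPTP is converted in the brain to a toxin that dopamine neurons take up and that blocks complex I of their mitochondria, and its action in mice serves as a model of Parkinson's disease. Dopamine neurons have their cell bodies in the midbrain, so that most of their mRNA is outside the striatum, and no gene on these arrays measures the loss of their axons directly. Immediate early genes, to which much of the comparison relates, are transcribed within minutes of synaptic activity or other stimuli without new protein synthesis. In bulk tissue of this kind, fewer cells of a type and less RNA per cell cannot be told apart.

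Of 42 immediate early genes, which neurons and other cells switch on with activity, 19 had lower levels in both MPTP mice than in either control, with Npas4, Arc, Egr2, Nr4a1 and Fos among them. Another 2 were above both controls in both MPTP mice, and in the rest the groups overlapped. Also below both controls in both MPTP mice were 2 receptor genes, Glp1r and Avpr1a, the chemokine gene Cxcl5 and most markers of the ciliated ependymal lining of the ventricles. Above both controls were the kinase gene Sgk1, the circadian repressors Ciart and Bhlhe41, and the ubiquitin ligase gene Mul1. None of these differences passed the adjusted threshold: limma, with Benjamini-Hochberg adjustment over all probe sets, called 0 of 16342 (0.0%) at an adjusted p of 0.05, and the smallest adjusted p was 0.458. At an unadjusted p under 0.05 there were 652 probe sets (3.99%), where 817 would be expected with no change at all. Of these, 344 (2.11%) were higher and 308 (1.88%) lower in MPTP mice. In 2825 probe sets (17.3%) both MPTP mice lay above both controls, and in 1970 (12.1%) both lay below. Gene lists were chosen with earlier results of these data known, so such shares beside a list are a description and no test. In the model of both MPTP mice, every adjusted p that is not printed was at least 0.93, and the differences below state where values lay. Precision is limited throughout by the small number of arrays, and for a single gene an exact permutation test of 2 arrays against 2 cannot give a two-sided p below 0.333.

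The MPTP mice differed from each other far more than the controls did, and MPTP mouse 1 stood apart from all 3 other arrays of the comparison. The median gap between the arrays of a group was 0.203 on the log2 scale in MPTP mice and 0.097 in controls, and the correlation of the arrays over the tested probe sets was 0.95 for MPTP mice and 0.995 for controls. MPTP mouse 1 lay at least 1 log2 unit above the mean of the controls in 257 probe sets (1.57%) and at least 1 below it in 380 (2.33%). MPTP mouse 2 did so in 3 (0.0184%) and 17 (0.104%). Fitted alone against the controls, with the other MPTP array left out and a lone array assumed to vary like those of the other groups, mouse 1 had 1607 probe sets past the adjusted threshold, 720 higher (4.41%) and 887 lower (5.43%). In the same fit mouse 2 had 0, with a smallest adjusted p of 0.0664. At an unadjusted p under 0.05 mouse 2 had 414 higher (2.53%) and 438 lower (2.68%).

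The MPTP mice differed in markers of striatal neurons and of neighbouring tissue. All 15 tested genes of striatal signalling were lower than the control mean in mouse 1, with a median difference of -1.56, and all 15 were higher than it in mouse 2, with a median of 0.28. The median over all tested probe sets was 0.03 in mouse 1 and 0.01 in mouse 2. Ppp1r1b, the gene of DARPP-32, a switch of dopamine signalling, had log2 values of 8.97 and 11.65 in MPTP mice 1 and 2, against 11.42 and 11.32 in controls 1 and 2. Drd1, the D1 receptor gene, was at 7.93 and 10.68 in MPTP mice, against 10.29 and 10.32 in controls. Drd2, the D2 receptor gene, was at 8.15 and 10.54 in MPTP mice, against 10.11 and 10.04 in controls. In each of these genes 1 MPTP mouse lay far below the controls and the other somewhat above them, so that the mean of the MPTP group describes neither mouse. The same split held for the neuropeptide genes of the medium spiny neurons. Tac1, which encodes substance P in the direct pathway, was at 8.70 and 11.63 in MPTP mice, against 11.18 and 11.30 in controls. Penk, the enkephalin gene of the indirect pathway, was at 11.32 and 13.30 in MPTP mice, against 13.15 and 13.10 in controls. Pdyn, which encodes dynorphin, was at 6.99 and 9.37 in MPTP mice, against 8.77 and 8.71 in controls.

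Markers of the thalamus moved the other way. The 12 tested markers had a median difference from the control mean of 2.56 in mouse 1 and -0.56 in mouse 2. In mouse 1, 11 of them were at least 1 log2 unit above that mean, against 1.57% of all probe sets. The thalamus median, set against the same controls, was 0.53 and -0.10 in MPTP mice needled at acupoints. In those needled elsewhere it was 0.19 and 1.497. Slc17a6, the vesicular glutamate transporter of thalamic neurons, was at 12.12 and 8.03 in MPTP mice, against 9.34 and 9.32 in controls. Prkcd, a protein kinase C gene of the thalamus, was at 11.97 and 7.53 in MPTP mice, against 9.41 and 9.34 in controls. The controls thus lay between the MPTP mice for both genes. All 18 tested markers of the choroid plexus, which secretes cerebrospinal fluid, were above the control mean in mouse 1, with a median of 1.68, against -0.23 in mouse 2. The choroid plexus median was 1.73 and 0.03 in MPTP mice needled at acupoints. In those needled elsewhere it was 1.55 and 2.27. High choroid plexus markers were thus not confined to mouse 1 among the MPTP-treated mice of the series. Ttr, the transthyretin gene, was at 13.39 and 8.12 in MPTP mice, against 8.63 and 8.88 in controls. Kcnj13, a potassium channel gene of the same epithelium, was at 10.13 and 5.06 in MPTP mice, against 5.34 and 5.45 in controls. Of 9 tested hypothalamic markers, 7 were above the control mean in mouse 1 and 2 below it. Their median was 0.07 in mouse 1 and -0.16 in mouse 2. Only 2 were at least 1 log2 unit higher in mouse 1, the peptide genes Pmch and Hcrt. Pmch, which encodes melanin-concentrating hormone, was at 8.89 and 4.11 in MPTP mice, against 4.48 and 4.39 in controls. Hcrt, the orexin gene, was at 8.88 and 5.76 in MPTP mice, against 5.90 and 5.65 in controls. The labels give the same tissue for all arrays and no record of how it was cut. The results below are therefore also given for each mouse alone. With the mean of the thalamus markers as a covariate, the median difference of the immediate early transcription factors was -0.26, against -0.54 without it, and Npas4 and Arc passed the adjusted threshold of limma. The mean of the thalamus markers was 9.93 and 6.93 in MPTP mice 1 and 2, against 7.52 and 7.47 in controls 1 and 2. The covariate thus takes up much of the spread between the MPTP mice, so these calls do not measure the part of thalamic tissue. The part of thalamic tissue or of the other marker groups was not tested.

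**Figure D1:**
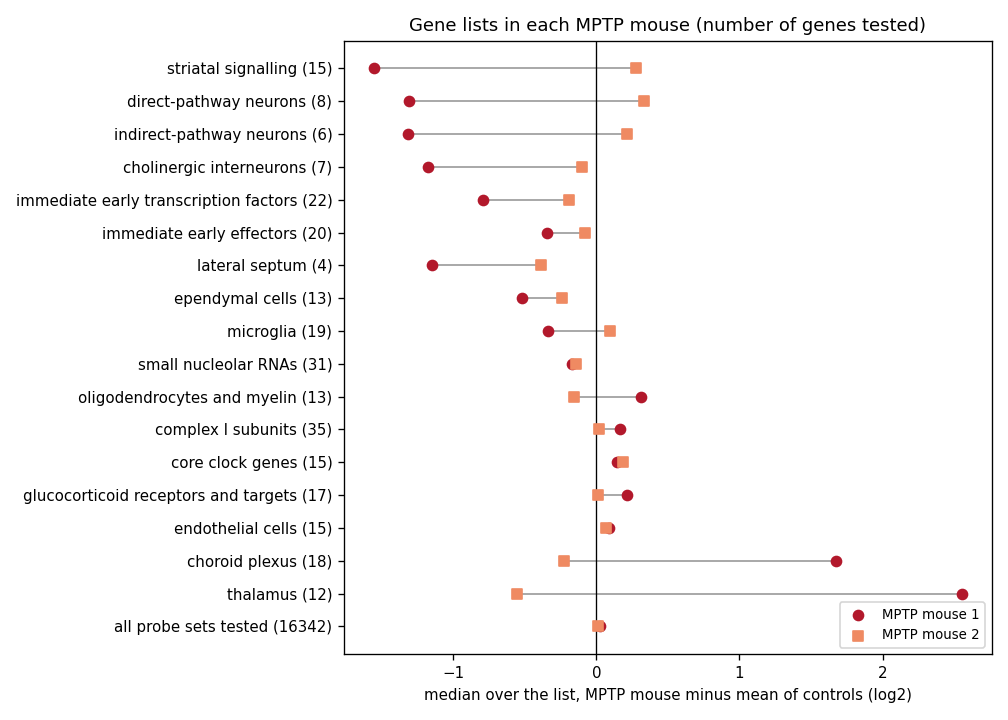
Median difference of each gene list between 1 MPTP mouse and the mean of the 2 controls, on the log2 scale, with MPTP mouse 1 as circles, MPTP mouse 2 as squares and the number of genes tested in brackets. Striatal signalling stood at -1.56 in mouse 1 and 0.28 in mouse 2 and thalamus at 2.56 and -0.56, whereas immediate early, septal and ependymal lists were below 0 in both mice.

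**Figure D2:**
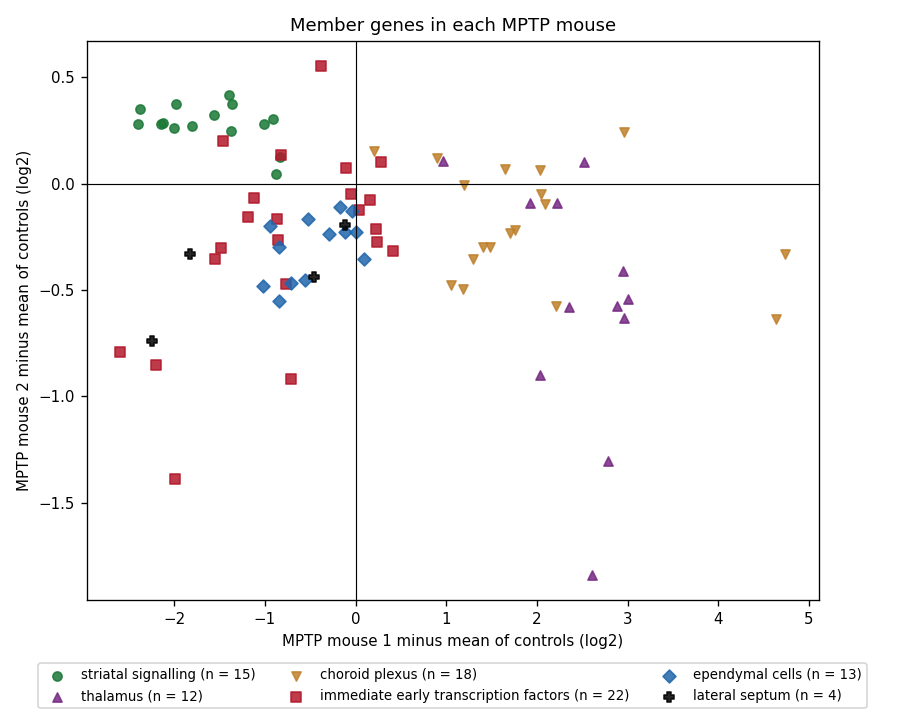
Each point is 1 gene, with its difference from the control mean in MPTP mouse 1 on the horizontal axis and in MPTP mouse 2 on the vertical axis, both on the log2 scale, for 6 gene lists. Striatal signalling genes lie at the upper left, thalamic markers mostly at the lower right, and ependymal and lateral septal genes below 0 on the vertical axis, with all 13 ependymal genes lower in mouse 2.

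Immediate early transcription factors bind DNA and start the later response of the cell to a stimulus, and the effectors act at synapses or on signalling. The promoters of many of them hold the cyclic AMP response element, TGACGTCA or its shorter form TGACG, which the activity-regulated factor CREB binds, or the CArG box, which serum response factor binds. The windows printed here are those of 3 transcription factors and 2 effectors that were below both controls in both MPTP mice. Each holds the 250 bases before a RefSeq transcription start (build GRCm38.p6), in the direction of transcription, and capitals mark TGACG or its complement CGTCA. The Npas4 window lies at chr19:4989972-4990221, on the minus strand. The Fos window lies at chr12:85473640-85473889, on the plus strand. The Nr4a1 window lies at chr15:101266596-101266845, on the plus strand. The Btg2 window lies at chr1:134079156-134079405, on the minus strand. The Dusp1 window lies at chr17:26508473-26508722, on the minus strand.
Npas4: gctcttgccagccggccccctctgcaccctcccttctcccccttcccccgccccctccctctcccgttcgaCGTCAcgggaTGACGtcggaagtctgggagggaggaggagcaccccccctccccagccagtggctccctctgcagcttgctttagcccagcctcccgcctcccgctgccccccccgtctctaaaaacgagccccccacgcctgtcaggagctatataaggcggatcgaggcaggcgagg
Fos: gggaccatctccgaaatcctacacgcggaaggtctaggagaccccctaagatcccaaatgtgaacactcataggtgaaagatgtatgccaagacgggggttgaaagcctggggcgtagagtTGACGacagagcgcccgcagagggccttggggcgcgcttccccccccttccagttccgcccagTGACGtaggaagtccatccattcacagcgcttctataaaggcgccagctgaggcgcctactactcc
Nr4a1: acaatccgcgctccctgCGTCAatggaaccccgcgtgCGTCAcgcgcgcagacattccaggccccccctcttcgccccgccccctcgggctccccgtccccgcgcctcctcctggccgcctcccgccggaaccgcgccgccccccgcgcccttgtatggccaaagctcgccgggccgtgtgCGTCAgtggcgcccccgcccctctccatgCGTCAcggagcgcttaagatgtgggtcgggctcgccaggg
Btg2: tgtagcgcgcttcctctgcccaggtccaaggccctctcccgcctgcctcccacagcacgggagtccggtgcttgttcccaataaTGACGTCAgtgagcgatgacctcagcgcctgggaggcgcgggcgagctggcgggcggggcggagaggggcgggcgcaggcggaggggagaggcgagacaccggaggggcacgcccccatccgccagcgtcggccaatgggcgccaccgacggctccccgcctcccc
Dusp1: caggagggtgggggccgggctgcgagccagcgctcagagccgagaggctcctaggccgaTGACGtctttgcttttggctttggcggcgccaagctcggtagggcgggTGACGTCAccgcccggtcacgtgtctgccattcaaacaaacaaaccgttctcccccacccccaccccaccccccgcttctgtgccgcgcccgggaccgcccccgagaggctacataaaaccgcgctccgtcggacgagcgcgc

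Npas4, Fos and Btg2 held 2 matches each, Dusp1 held 3 and Nr4a1 held 4, and the full TGACGTCA, in which both forms overlap, is in the Btg2 and Dusp1 windows. None of the 5 windows held a CArG box. The promoter table had 49 windows for 33 of the tested immediate early genes, and some of a gene's windows overlap. TGACG on either strand was in 28 of these (57.1%), against 17.8% of 32851 windows of all genes in the table. TGACGTCA was in 4 (8.16%), against 1.55% of all windows, and the CArG box in 5 (10.2%), against 1.47%. By gene, TGACG was in a window of 23 of the 33 genes, TGACGTCA in 4 and the CArG box in 2. A match describes the letters of a window and is no measure of binding in these mice.

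Of 24 transcription factors listed, 22 were tested, and 17 were lower and 5 higher in MPTP mice, where 45.7% of all probe sets were lower and 54.3% higher. The list had a median difference of -0.54, where the median of all probe sets was 0.02. In 12 both MPTP mice lay below both controls, against 12.1% of all probe sets, and in 1 they lay above. 8 of the 22 had an unadjusted p under 0.05 and were lower, against 1.88% of all probe sets, and 0 were higher. The median was -0.79 in mouse 1 and -0.19 in mouse 2, so the list lay farther below the controls in mouse 1, in which striatal neuron genes were also low.

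Npas4, a transcription factor that neurons make on calcium entry, was at 5.95 and 6.55 in MPTP mice, against 7.93 and 7.95 in controls. The lowest control exceeded the highest MPTP mouse by more than a log2 unit. Its difference was -1.69 (SE 0.19, adjusted p = 0.458 by limma), which is 0.31 of the control level. Mouse 2 alone stood at -1.39 against the controls. Fos, which forms the AP-1 factor with Jun proteins, was at 6.86 and 6.65 in MPTP mice, against 7.56 and 7.58 in controls. Here mouse 2 was the lower of the MPTP mice, and the difference was -0.82 (SE 0.18). Egr2, a zinc finger factor, was at 5.51 and 6.86 in MPTP mice, against 7.61 and 7.82 in controls, a difference of -1.52 (SE 0.38). Nr4a1, an orphan nuclear receptor of striatal neurons, was at 7.90 and 9.71 in MPTP mice, against 10.48 and 10.51 in controls. Both MPTP mice were below both controls in each of these genes, but Nr4a1 differed by -2.60 in mouse 1 and -0.79 in mouse 2, a gap far wider than that between the controls.

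Fosb, another AP-1 member, was at 5.85 and 7.05 in MPTP mice, against 7.38 and 7.44 in controls, a difference of -0.95 (SE 0.37). Egr1 was at 7.62 and 8.80 in MPTP mice, against 9.09 and 9.12 in controls, a difference of -0.89 (SE 0.35). Egr4 was at 6.93 and 7.23 in MPTP mice, against 7.71 and 7.68 in controls, a difference of -0.62 (SE 0.18). The groups did not overlap in any of these 3 genes, and mouse 1 was the lower MPTP mouse in each. Junb, a Jun protein, was at 6.41 and 6.99 in MPTP mice, against 7.26 and 7.25 in controls, a difference of -0.56 (SE 0.18). Egr3, Fosl2 and Nr4a3 differed by -0.67, -0.52 and -0.59, with mouse 2 below the nearer control by 0.08, 0.15 and 0.01 only. Not every member was low. Jun was at 8.93 and 8.21 in MPTP mice, against 8.39 and 8.66 in controls. Nr4a2, the relative of Nr4a1 needed for dopamine neurons, was at 6.73 and 7.66 in MPTP mice, against 7.11 and 7.11 in controls. Atf3, a stress-induced factor, was at 5.90 and 6.07 in MPTP mice, against 5.95 and 6.05 in controls. The groups overlapped in these 3 genes.

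All 20 listed effectors were tested, with 14 lower and 6 higher in MPTP mice and a median of -0.23 (-0.35 in mouse 1 and -0.08 in mouse 2). In 7 the MPTP mice lay below both controls, against 12.1% of all probe sets, and in 1 above, against 17.3%. 5 had an unadjusted p under 0.05 and were lower, against 1.88%, and 0 were higher. Arc, a synaptic protein that shapes glutamate receptor traffic, was at 7.60 and 8.33 in MPTP mice, against 9.41 and 9.36 in controls. Its difference was -1.42 (SE 0.22), which is 0.373 of the control level, and mouse 2 alone stood at -1.06. Btg2, which restrains cell division, was at 6.51 and 6.24 in MPTP mice, against 7.16 and 7.04 in controls, a difference of -0.72 (SE 0.13). Ccn1, a secreted matrix protein, was at 6.73 and 6.64 in MPTP mice, against 7.40 and 7.31 in controls, a difference of -0.67 (SE 0.14). Dusp1, a phosphatase that turns off MAP kinases, was at 8.79 and 8.48 in MPTP mice, against 9.20 and 9.29 in controls, a difference of -0.61 (SE 0.13). In Btg2, Ccn1 and Dusp1, unlike Nr4a1 or Egr1, mouse 2 was the lower MPTP mouse. Sik1, a salt-inducible kinase, was at 7.67 and 7.81 in MPTP mice, against 8.23 and 8.13 in controls, a difference of -0.44 (SE 0.13).

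Other effectors were low in mouse 1 alone. Homer1, a scaffold of the synapse, was at 8.45 and 10.30 in MPTP mice, against 10.09 and 10.12 in controls. Plk2, a kinase that phosphorylates synuclein, was at 9.18 and 11.21 in MPTP mice, against 11.03 and 11.08 in controls. Rgs2, a regulator of G protein signalling, was at 8.38 and 9.89 in MPTP mice, against 9.79 and 9.89 in controls. These 3 genes followed the split of the striatal neuron genes. Bdnf, the neurotrophin gene, was at 6.79 and 6.10 in MPTP mice, against 6.11 and 6.12 in controls. Over both lists together, 31 of 42 genes were lower in MPTP mice, and in mouse 2 alone 32 of 42 were lower. In the fit of mouse 2 alone 11 of the 42 had an unadjusted p under 0.05 and were lower, against 2.68% of all probe sets, and 0 were higher. In the fit of mouse 1 alone 16 passed the adjusted threshold as lower, against 5.43%, and 1 as higher.

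The needled MPTP mice give the level of the same genes in other animals that received the toxin. Npas4 was at 6.80 and 6.76 in mice needled at acupoints and at 6.99 and 7.09 in mice needled elsewhere, all below both controls and above both unneedled MPTP mice. Arc was at 8.67 and 8.65 in mice needled at acupoints and at 8.77 and 8.61 in mice needled elsewhere, in the same position. Fos was at 7.0 and 6.48 in mice needled at acupoints and at 6.74 and 6.92 in mice needled elsewhere. These values lay above, between and below those of the unneedled MPTP mice, and again below both controls. Btg2 was at 6.41 and 6.21 in mice needled at acupoints and at 6.57 and 6.47 in mice needled elsewhere. Over the whole list, the median of the transcription factors was -0.14 and -0.24 in mice needled at acupoints. In mice needled elsewhere it was -0.22 and -0.39, where unneedled MPTP mice 1 and 2 had -0.79 and -0.19. For the effectors it was -0.14 and -0.13 at acupoints and -0.10 and -0.19 elsewhere, against -0.35 and -0.08 in the unneedled mice. All these values are set against the same 2 controls and are no independent test.

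**Figure D3:**
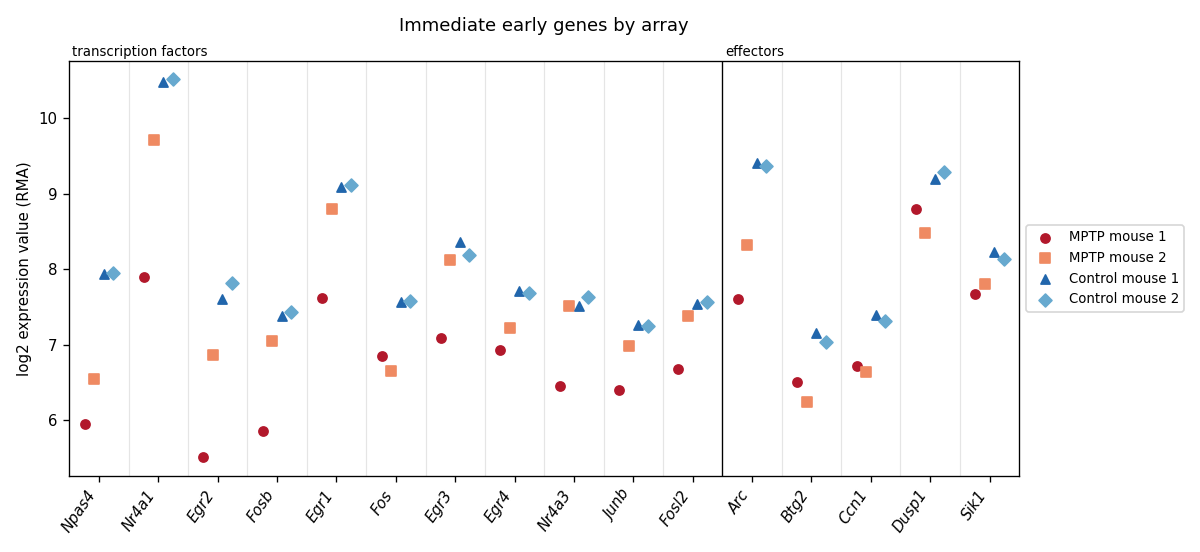
Log2 expression values of 16 immediate early genes on the 4 arrays, with MPTP mice 1 and 2 as a red circle and an orange square and control mice 1 and 2 as a blue triangle and a light blue diamond. Both MPTP mice are below both controls in all 16 genes drawn, which were picked for that, and mouse 2 is the lower MPTP mouse in Fos, Btg2, Ccn1 and Dusp1.

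Glucocorticoids, the stress hormones of the adrenal gland, act through the receptors encoded by Nr3c1 and Nr3c2 and switch on a known set of genes. Of 17 tested receptor and target genes, 14 were higher and 3 lower in MPTP mice, where 54.3% of all probe sets were higher. The median was 0.21, and it was 0.21 in mouse 1 and 0.01 in mouse 2. In 7 genes the MPTP mice lay above both controls, against 17.3% of all probe sets, and in 2 below, against 12.1%. At an unadjusted p under 0.05 there was 1 gene, which was higher, against 2.11%. It was Sgk1, a kinase that regulates ion channels and is also made by oligodendrocytes. It was at 9.84 and 9.77 in MPTP mice, against 8.86 and 9.07 in controls, a difference of 0.84 (SE 0.13) or 1.79 times the control level. Both MPTP mice were alike, and their gap to the nearer control exceeded the gap between the controls. Sgk1 was at 9.98 and 9.82 in MPTP mice needled at acupoints and at 8.83 and 9.06 in those needled elsewhere, so that the second pair lay at the level of the controls.

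The other members were less uniform. Klf9, a zinc finger factor, was at 10.17 and 10.45 in MPTP mice, against 9.96 in control 1 and a control mean of 9.98, a difference of 0.33 (SE 0.15). Plin4, a lipid droplet gene, was at 6.42 and 6.35 in MPTP mice, against 6.15 and 6.10 in controls, a difference of 0.26 (SE 0.12). The groups did not overlap in either gene. Fkbp5, which encodes a co-chaperone of the receptor, was at 8.09 and 8.42 in MPTP mice, against 8.04 and 8.09 in controls. Tsc22d3, the leucine zipper gene GILZ, was at 7.98 and 7.06 in MPTP mice, against 7.04 and 7.08 in controls. Zbtb16, a zinc finger factor, was at 8.01 and 7.26 in MPTP mice, against 6.99 and 7.22 in controls. Fkbp5 was thus above the controls mainly in mouse 2, and Tsc22d3 and Zbtb16 mainly in mouse 1. The glucocorticoid receptor gene Nr3c1 was at 9.34 and 9.11 in MPTP mice, against 9.06 and 9.22 in controls, with overlapping groups. The mineralocorticoid receptor gene Nr3c2 was at 8.03 and 8.60 in MPTP mice, against 8.64 and 8.73 in controls, a difference of -0.37 (SE 0.18).

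The circadian clock is a loop in which Clock and Arntl drive the Per, Cry and Nr1d genes, which then repress them, with Dbp, Tef and Hlf as output factors. Of 15 tested clock genes, 12 were higher and 3 lower in MPTP mice, where 54.3% of all probe sets were higher. The median was 0.14 (0.15 in mouse 1 and 0.19 in mouse 2). Set against the same controls, it was 0.15 and 0.11 in MPTP mice needled at acupoints and 0.17 and 0.29 in those needled elsewhere. In 7 genes both unneedled MPTP mice lay above both controls, against 17.3% of all probe sets, and in 1 below. 3 had an unadjusted p under 0.05 and were higher, against 2.11%. Ciart, a repressor of Clock and Arntl, was at 8.56 and 8.08 in MPTP mice, against 7.69 and 7.73 in controls, a difference of 0.61 (SE 0.20). A second probe set of Ciart was at 7.52 and 7.63 in MPTP mice, against 7.19 and 7.30 in controls, so that both placed MPTP mice higher. Bhlhe41, a repressor that competes at the same DNA sites, was at 8.98 and 8.82 in MPTP mice, against 8.39 and 8.59 in controls, a difference of 0.41 (SE 0.12). Nr1d2, which encodes the nuclear receptor REV-ERB beta, was at 10.05 and 9.66 in MPTP mice, against 9.37 and 9.57 in controls, a difference of 0.39 (SE 0.15). The groups did not overlap in these 3 genes, but Nr1d2 of mouse 2 lay only 0.09 above the nearer control.

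Nr1d1, its relative, was at 9.98 and 9.95 in MPTP mice, against 9.80 and 9.73 in controls, a difference of 0.21 (SE 0.11). Cry1, a repressor of the loop, was at 7.83 and 8.03 in MPTP mice, against 8.11 and 8.12 in controls, a difference of -0.19 (SE 0.11). Arntl, the driver, was at 8.16 and 8.60 in MPTP mice, against 8.57 and 8.54 in controls, with overlapping groups. Rora, a nuclear receptor that the thalamus also expresses, was at 10.78 and 8.28 in MPTP mice, against 8.33 and 8.45 in controls, and gave the highest difference of the list. All 3 output factors had higher means in MPTP mice. Hlf was at 10.04 and 9.56 in MPTP mice, against 9.40 and 9.40 in controls, a difference of 0.40 (SE 0.16). Dbp was at 9.34 and 9.82 in MPTP mice, against 9.26 and 9.23 in controls, a difference of 0.34 (SE 0.17). Hlf was farther from the controls in mouse 1, and Dbp in mouse 2. The hour at which tissue was taken is not given in the sources used here. The E-box CACGTG, which Clock and Arntl bind, was in 4 of 19 promoter windows of these genes (21.1%), against 6.02% of all windows.

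**Figure D4:**
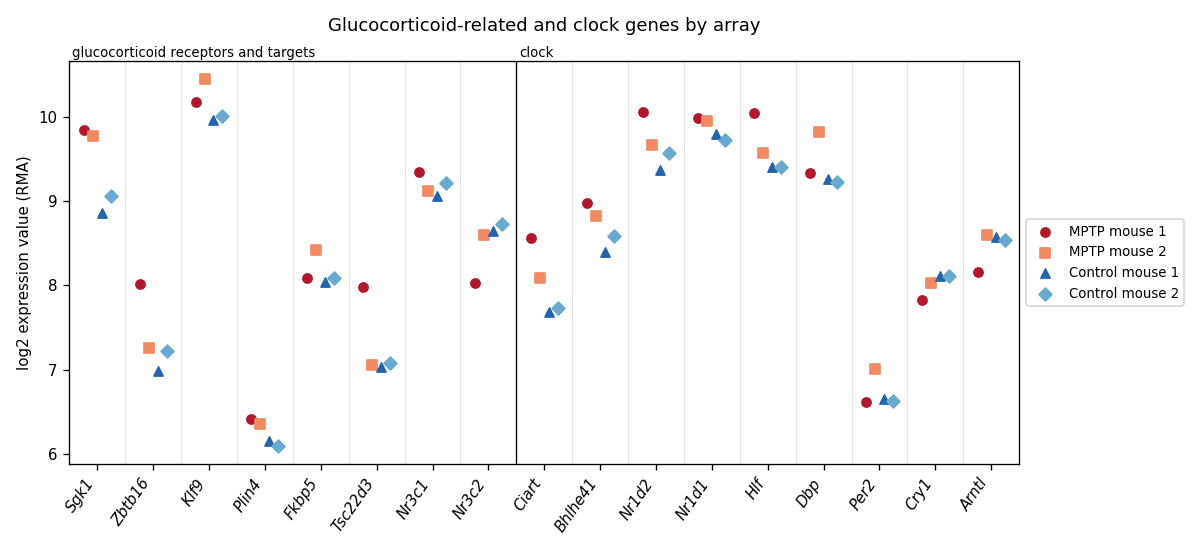
Log2 expression values of 8 glucocorticoid-related and 9 clock genes on the 4 arrays, with MPTP mice as a red circle and an orange square and controls as a blue triangle and a light blue diamond. Sgk1 shows both MPTP mice near 9.8 and both controls near 9.0, while Zbtb16 and Tsc22d3 are apart from the controls in MPTP mouse 1 alone.

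Receptor genes gave some of the lowest p-values of the comparison. Glp1r, the receptor of the peptide hormone GLP-1, was at 5.76 and 5.68 in MPTP mice, against 7.42 and 7.42 in controls. The arrays of each group were nearly equal, and the difference was -1.70 (SE 0.21, adjusted p = 0.53 by limma), which is 0.308 of the control level. Glp1r was at 7.70 and 7.01 in MPTP mice needled at acupoints and at 7.52 and 7.70 in those needled elsewhere, above both unneedled MPTP mice. Avpr1a, the vasopressin V1a receptor, was at 6.24 and 6.10 in MPTP mice, against 7.03 and 7.14 in controls, a difference of -0.92 (SE 0.11, adjusted p = 0.458 by limma). Cxcl5, a chemokine that draws neutrophils, was at 5.32 and 5.05 in MPTP mice, against 6.43 and 6.70 in controls, a difference of -1.37 (SE 0.23). These 3 genes were as low in mouse 2 as in mouse 1. Gabre, the epsilon subunit of the GABA-A receptor, was at 5.22 and 5.0 in MPTP mice, against 5.65 and 5.61 in controls, a difference of -0.51 (SE 0.11). The filter level, set on the mean over the 8 arrays, was 5.25. Gabre in both MPTP mice and Cxcl5 in mouse 2 lay below that level, and Cxcl5 in mouse 1 just above it.

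Markers of the lateral septum, a nucleus medial to the striatum, and of ependymal cells, which line the ventricle between them, were also low in both mice. All 4 septal markers tested were below both controls in both MPTP mice, against 12.1% of all probe sets. Their median was -0.77 (-1.15 in mouse 1 and -0.38 in mouse 2). This list, like the others, was chosen with earlier results of these data known, so the share beside it is no test. Against the same controls, the septal median was 0.10 and -0.16 in MPTP mice needled at acupoints. It was 0.34 and -0.05 in those needled elsewhere. Trpc4, a cation channel gene, was at 6.36 and 7.87 in MPTP mice, against 8.50 and 8.71 in controls. Nts, the neurotensin gene, was at 6.80 and 8.30 in MPTP mice, against 8.54 and 8.72 in controls. Prokr2, the prokineticin receptor 2 gene, was at 6.05 and 6.08 in MPTP mice, against 6.42 and 6.60 in controls. Mouse 1 was far lower than mouse 2 for Trpc4 and Nts, and the MPTP mice were alike for Prokr2. Crhr2, a receptor of the urocortins, was at 6.07 and 5.99 in MPTP mice, against 6.19 and 6.19 in controls. Glp1r and Avpr1a are known as receptors of the lateral septum in rodents, and the part of septal tissue in their values was not tested. Zic1, a zinc finger factor of septum and thalamus, was at 10.04 and 8.00 in MPTP mice, against 9.19 and 9.40 in controls, with the controls between the MPTP mice.

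All 13 tested ependymal markers were lower in MPTP mice, with a median of -0.34 (-0.52 in mouse 1 and -0.24 in mouse 2). Against the same controls, the ependymal median was 0.10 and -0.07 in MPTP mice needled at acupoints. It was 0.20 and 0.39 in those needled elsewhere. In 11 both MPTP mice were below both controls, against 12.1% of all probe sets, and 5 had an unadjusted p under 0.05, against 1.88%. Rsph4a, a radial spoke protein of motile cilia, was at 6.02 and 6.31 in MPTP mice, against 6.76 and 6.97 in controls, a difference of -0.70 (SE 0.15). Tmem212, a membrane protein of these cells, was at 6.11 and 6.65 in MPTP mice, against 7.02 and 7.24 in controls, a difference of -0.75 (SE 0.19). Rarres2, which encodes the chemoattractant chemerin, was at 6.41 and 6.52 in MPTP mice, against 7.03 and 6.91 in controls, a difference of -0.51 (SE 0.12). The groups were apart in these 3 genes by more than the gap between the controls. Ccdc153 and Fam183b, both genes of ciliated cells, differed by -0.59 (SE 0.16) and -0.57 (SE 0.18). Foxj1, the master factor of motile cilia, was at 6.58 and 6.49 in MPTP mice, against 6.65 and 6.58 in controls, a difference of -0.08 (SE 0.11). The cilium gene that defines the cell type was thus nearly level, with mouse 1 only 0.003 below the nearer control. In mouse 1 the ependymal list was low while the choroid plexus list, from the neighbouring epithelium of the ventricle, was high. In mouse 2 all 13 ependymal markers and 13 of 18 choroid plexus markers were below the control mean. The choroid plexus median there was -0.23, where the median gap between the controls was 0.19.

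**Figure D5:**
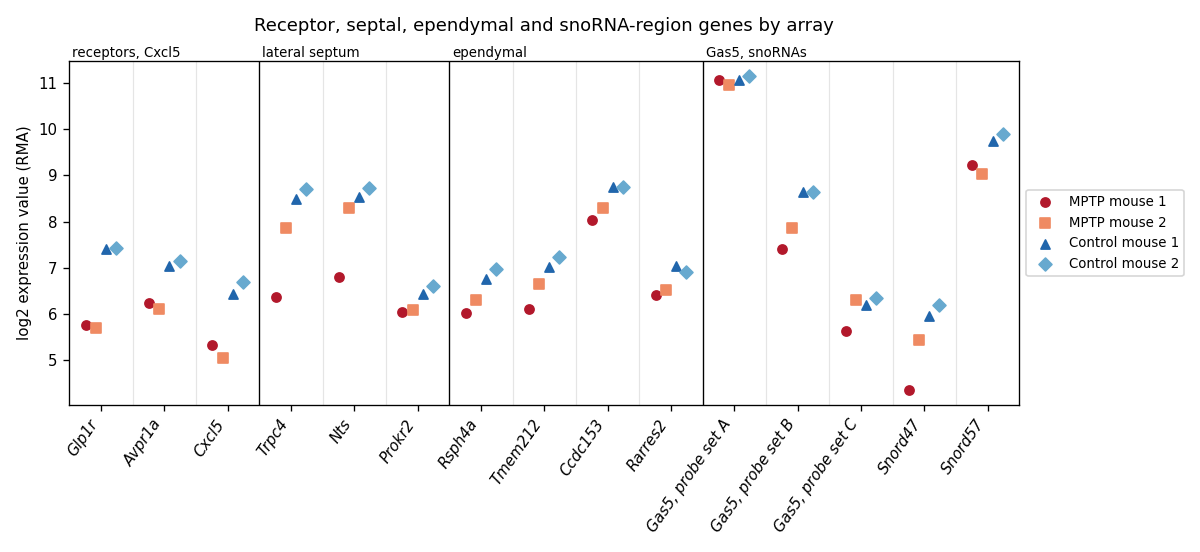
Log2 expression values of receptor, lateral septal and ependymal genes, of 3 probe sets of Gas5 and of 2 small nucleolar RNAs on the 4 arrays, with MPTP mice as a red circle and an orange square and controls as a blue triangle and a light blue diamond. Glp1r, Avpr1a and Cxcl5 show the MPTP mice close together below the controls, while the Gas5 probe sets, A to C from the highest to the lowest control level, show non-overlapping groups in B alone.

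Small nucleolar RNAs guide the modification of ribosomal RNA and are cut from introns of host transcripts such as Gas5. Of 51 listed, 31 were tested, with 22 lower and 9 higher in MPTP mice and a median of -0.20 (-0.17 in mouse 1 and -0.14 in mouse 2). In 15 both MPTP mice were below both controls, against 12.1% of all probe sets, and in 2 above, against 17.3%. 6 had an unadjusted p under 0.05 and were lower, against 1.88% of all probe sets, and 1 was higher. Snord57 was at 9.22 and 9.04 in MPTP mice, against 9.75 and 9.91 in controls, a difference of -0.70 (SE 0.12). Snord47, which lies within Gas5, was at 4.36 and 5.43 in MPTP mice, against 5.96 and 6.18 in controls, a difference of -1.17 (SE 0.32). Its value in mouse 1 lay below the filter level of 5.25. Snora44 went against the list, at 8.25 and 6.87 in MPTP mice, against 5.74 and 5.78 in controls, a difference of 1.80 (SE 0.63). The 3 probe sets of Gas5 differed in size. One was at 7.40 and 7.85 in MPTP mice, against 8.64 and 8.64 in controls, a difference of -1.02. The brightest was at 11.07 and 10.96 in MPTP mice, against 11.07 and 11.15 in controls, a difference of -0.10. The third was at 5.63 and 6.30 in MPTP mice, against 6.18 and 6.35 in controls, a difference of -0.30. All 3 had a lower mean in MPTP mice, and the groups overlapped in the brightest and the third.

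Genes of dopamine synthesis, transport and breakdown, which the toxin's known action concerns most, showed no common position. Of 10 tested, 8 were higher and 2 lower, where 54.3% of all probe sets were higher, and 1 had an unadjusted p under 0.05 and was higher, against 2.11%. The median was 0.21 in mouse 1 and -0.09 in mouse 2, and 6 of the 10 were below the control mean in mouse 2. Th, which makes the dopamine precursor, was at 6.66 and 7.10 in MPTP mice, against 6.73 and 6.80 in controls. Slc6a3, the dopamine transporter by which the toxin enters neurons, was at 6.77 and 5.93 in MPTP mice, against 5.95 and 5.54 in controls. Slc18a2, the vesicular monoamine transporter, was at 6.52 and 5.87 in MPTP mice, against 6.44 and 6.60 in controls. The groups overlapped for each of these 3 genes. Ddc, the second enzyme of dopamine synthesis, was at 7.75 and 7.66 in MPTP mice, against 7.44 and 7.48 in controls, a difference of 0.25 (SE 0.10).

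The 15 higher genes with the smallest p-values, Sgk1 among them, had roles of several kinds. Mul1, a ubiquitin ligase of the outer mitochondrial membrane, was at 8.94 and 8.86 in MPTP mice, against 8.33 and 8.27 in controls, a difference of 0.60 (SE 0.10). Acyp1, an acylphosphatase, was at 8.04 and 7.65 in MPTP mice, against 7.09 and 7.16 in controls, a difference of 0.72 (SE 0.14). Bloc1s3, a subunit of a complex that forms lysosome-related organelles, was at 8.80 and 8.54 in MPTP mice, against 8.08 and 8.14 in controls, a difference of 0.56 (SE 0.11). The groups were well apart in these 3 genes. Mrps27, a protein of the mitochondrial ribosome, and Psmb5, a catalytic subunit of the proteasome, differed by 0.52 (SE 0.12) and 0.49 (SE 0.12). Tns2, a focal adhesion protein, differed by 0.68 (SE 0.16), and the signalling adaptor Traf2 by 0.45 (SE 0.11). Fras1, a basement membrane protein, was at 7.33 and 7.35 in MPTP mice, against 6.85 and 6.96 in controls, a difference of 0.43 (SE 0.09). Mpp7, a scaffold of cell junctions, differed by 0.51 (SE 0.11). The remaining 5 were Lin9, Zfp652, Jmy, Commd7 and Degs2, with differences between 0.38 and 0.46.

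Among the 15 lower genes, those outside the groups described were Tmem178, Tceal6, Ccdc81 and Dnajb6. Tmem178, a membrane protein of the endoplasmic reticulum, was at 8.02 and 8.47 in MPTP mice, against 9.02 and 9.16 in controls, a difference of -0.84 (SE 0.16). Tceal6, of a family of transcription elongation factor-like proteins, was at 6.52 and 6.60 in MPTP mice, against 7.25 and 7.41 in controls, a difference of -0.77 (SE 0.14). Ccdc81 was at 6.04 and 6.05 in MPTP mice, against 6.50 and 6.56 in controls, a difference of -0.48 (SE 0.09). Dnajb6, a co-chaperone that keeps proteins from aggregating, was at 5.44 and 5.39 in MPTP mice, against 6.17 and 5.93 in controls, a difference of -0.64 (SE 0.13). Both MPTP mice were below both controls in all 4 genes, and in Ccdc81 they were nearly equal.

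Each MPTP mouse also had genes of its own. The 10 named genes farthest below the controls in mouse 1 included Gda, Crym, Akap5, Nr4a1 and Tac1. Gda, guanine deaminase, was at 6.83 and 10.34 in MPTP mice, against 10.11 and 10.20 in controls. Crym, which binds thyroid hormone, was at 6.71 and 10.17 in MPTP mice, against 9.90 and 9.85 in controls. Akap5, an anchor for protein kinase A at the synapse, was at 7.95 and 10.86 in MPTP mice, against 10.55 and 10.67 in controls. In all 3, mouse 2 was above both controls. Among the 10 named genes farthest above the controls in mouse 2 was Usp17ld, a deubiquitinase of a family of near-identical copies that the probe set may not tell apart, at 5.06 and 8.00 in MPTP mice, against 6.01 and 6.78 in controls. Lpl, lipoprotein lipase, was at 6.06 and 8.62 in MPTP mice, against 7.80 and 7.83 in controls. Stk32c, a kinase, was at 9.02 and 9.87 in MPTP mice, against 9.09 and 9.12 in controls. For Usp17ld and Lpl mouse 1 lay below both controls, so that the mice lay on opposite sides of the controls. Among the genes farthest below the controls in mouse 2 were Prkcd, Slc17a6 and Ptpn3, which were high in mouse 1, and Npas4, Glp1r, Cxcl5 and Arc, which were low in both mice. Ptpn3, a tyrosine phosphatase of the thalamus, was at 10.96 and 6.94 in MPTP mice, against 8.04 and 8.18 in controls, by the probe set that followed the rule for mouse 2.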

How the data were processed

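RNA of 300 ng per animal was labelled and hybridised to whole-transcript gene arrays, 1 array a mouse, per the labels' protocols. The deposited values are log2 expression values that the authors made with Affymetrix Expression Console and RMA, per the submitters' processing notes, with no version given. RMA corrects background, quantile-normalises the arrays and summarises each probe set, so a shift shared by most genes could not be seen. The values were used as they stand. Array medians lay between 6.02 and 6.12. The genome build used by the authors is not given in the sources used here. Symbols came from the platform's gene table, and 21698 of the 21789 probe sets with 1 symbol matched a RefSeq gene table by gene ID. Promoter windows came from RefSeq (GRCm38.p6).

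Groups followed the sample titles, which number the arrays of a group as separate mice. Probe sets at or above the 25th percentile of the mean (5.25) entered 1 limma 3.58.1 model in R 4.3.3 (lmFit and eBayes) over 8 arrays and 4 groups, with 4 residual and 2.94 prior degrees of freedom. The contrast was MPTP minus control, adjusted by Benjamini-Hochberg. A list used 1 probe set a gene, the brightest, and was described by counts and medians with no test of its own. All members and lists were chosen with earlier results of these data known. Named genes were the 15 higher and 15 lower genes of smallest p whose groups did not overlap (without gene models, unnamed clones, olfactory receptors and small RNA genes), the 10 farthest above and below the controls in each MPTP mouse, members of the lists, and 20 genes fixed by name. On simulated data with 200 of 16342 probe sets changed in each of 5 sets, the MPTP contrast recovered 94.2% of changes of 2 log2 units, 63.6% of 1 and 1.8% of 0.5. The simulation gave all arrays of a gene 1 spread, and the MPTP arrays were farther apart than that. Mice of the same number did not deviate together (correlation 0.072). Alternatives were other filters, samples, scalings, shrinkage options, array weights, a mouse number block, a thalamus marker covariate, all probe sets, and each array left out.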

Additional observations from a re-analysis of the deposited data

How the results depend on the processing

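The count of genes past the adjusted threshold was 0 and stayed at 0 under all alternatives but 2. It was 2 with the mean of the thalamus markers as a covariate, namely Npas4 and Arc, and it ranged from 0 to 1607 with 1 array left out, the 1607 arising without MPTP mouse 2. At an unadjusted p under 0.05 the count of 652 became 381 with only the 4 arrays of the comparison, which leaves fewer samples to estimate the spread, and ranged from 282 (without control mouse 1) to 4200 (without MPTP mouse 2), with 317 without control mouse 2 and 852 without MPTP mouse 1. With the mouse number as a replicate block it was 525, with 0 past the adjusted threshold. The numbers gave no sign of pairing, and the block changed no other call. No median of the 7 lists run under all settings changed sign. For some lists described or drawn by mouse, the median in MPTP mouse 2 and that of both mice lay on opposite sides of 0. These were striatal signalling (0.28 against -0.62), direct-pathway neurons (0.33 against -0.49), indirect-pathway neurons (0.22 against -0.66) and thalamus (-0.56 against 0.99). The others were choroid plexus (-0.23 against 0.75), dopamine handling (-0.09 against 0.15), oligodendrocytes (-0.16 against 0.018), hypothalamus (-0.16 against 0.037) and microglia (0.09 against -0.15). With 1 array left out, the medians ranged from -0.79 to -0.19 for immediate early transcription factors, from -0.35 to -0.079 for effectors, from 0.014 to 0.23 for glucocorticoid genes, from -1.15 to -0.38 for lateral septum, from -0.52 to -0.24 for ependymal cells and from -0.17 to -0.13 for small nucleolar RNAs. The ends for the first 5 lists came from leaving out an MPTP mouse, apart from the 0.23, which came without control mouse 1. Array weights, which gave MPTP mouse 1 the lowest weight of 0.256, put the transcription factors at -0.25 and the clock genes at 0.20. The thalamus covariate put the transcription factors at -0.26 and the small nucleolar RNAs at -0.13. The filter at the median, which left fewer genes, put the effectors at -0.35, lateral septum at -1.29, ependymal cells at -0.58 and small nucleolar RNAs at -0.32. Beyond these construction effects the cause was not tested. Of 82 genes checked, 1 turned: Nr3c1 ranged from -0.024 (without MPTP mouse 1) to 0.20 (without MPTP mouse 2). Npas4 ranged from -1.99 (without MPTP mouse 2) to -1.39 (without MPTP mouse 1), and Arc from -1.78 to -1.06. The 82 include genes chosen for small p-values in these data, which favours a steady direction. Precision is limited by 2 arrays a group, by 1 time point and by dim probe sets near the filter, whose log2 differences understate changes.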

Other observations

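Endothelial genes, of the cells that form the blood-brain barrier, were higher in 12 of 15 cases, where 54.3% of all probe sets were higher, with a median of 0.10 (0.09 in MPTP mouse 1 and 0.07 in MPTP mouse 2). 4 had an unadjusted p under 0.05 and were higher, against 2.11% of all probe sets. Mfsd2a, which carries omega-3 lipids across the barrier, was at 8.70 and 8.14 in MPTP mice, against 7.98 and 7.99 in controls. Slc2a1, its glucose transporter, was at 10.79 and 10.54 in MPTP mice, against 10.36 and 10.34 in controls. Flt1, a receptor of vascular endothelial growth factor, was at 8.59 and 8.41 in MPTP mice, against 8.19 and 8.22 in controls. Tie1, a receptor kinase of endothelium, was at 7.21 and 6.86 in MPTP mice, against 6.66 and 6.72 in controls. Both MPTP mice were above both controls in all 4 genes, and mouse 1 was the higher. Cldn5, the tight junction claudin, was at 8.62 and 8.58 in MPTP mice, against 8.71 and 8.76 in controls, and went the other way. In the pericyte list the potassium channel regulator Abcc9 was at 7.40 and 6.91 in MPTP mice, against 6.71 and 6.81 in controls.

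Of 11 neurotrophic factors and receptors tested, 5 were higher and 6 lower, with a median of -0.03 (0.03 in mouse 1 and -0.15 in mouse 2). The 2 with an unadjusted p under 0.05 were lower, against 1.88% of all probe sets. Ret, the shared signalling receptor of the GDNF family, was at 8.24 and 6.39 in MPTP mice, against 6.98 and 6.99 in controls, with the controls between the MPTP mice. Gfra1, the receptor subunit that binds GDNF, was at 9.16 and 9.73 in MPTP mice, against 10.03 and 10.02 in controls, a difference of -0.58 (SE 0.22). Gfra2, which binds neurturin, was at 7.76 and 7.39 in MPTP mice, against 8.08 and 8.10 in controls, a difference of -0.51 (SE 0.18). The groups did not overlap in either gene, and a different mouse was the lower in each. Gdnf itself was at 6.30 and 6.56 in MPTP mice, against 6.42 and 6.40 in controls. Nqo1, a quinone reductase driven by the oxidative stress factor Nrf2, was at 6.72 and 6.41 in MPTP mice, against 6.11 and 6.12 in controls, a difference of 0.45 (SE 0.18). Hmox1, another target of that factor, was at 6.43 and 6.12 in MPTP mice, against 6.20 and 6.30 in controls, with overlapping groups. Of 35 genes listed by name as subunits of complex I, which the toxin blocks, 27 were higher and 8 lower. Of all probe sets 54.3% were higher. The median of the list was 0.10 (0.17 in mouse 1 and 0.02 in mouse 2). Microglial markers were lower than the control mean in all 19 cases in mouse 1 (median -0.34) and in 6 of 19 in mouse 2 (median 0.09). Gfap, the astrocyte filament gene, was at 8.16 and 7.45 in MPTP mice, against 7.98 and 8.06 in controls.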
